A study of Mus musculus with 20 samples.

Results

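The collagen genes expressed in inguinal white adipose tissue (iWAT), a subcutaneous depot, were described as a family of 43 among the 36611 genes measured. They were chosen by name, as the protein-coding genes of the mm9 annotation whose symbol is Col, a number, the letter a and a number. The family holds 11 genes of fibrillar chains, 6 genes of type IV chains and 26 genes of the other collagen types. RNA was sequenced from 20 female C57BL/6 mice aged 6 months, in 4 groups of 5, after 15 weeks of feeding, either on a diet of 10.5% fat (LFD, low fat) or on a diet of 58% fat (HFD, high fat). All mice carried Tmem120a fl/fl, with exons 2 and 3 between loxP sites. Ad-Tmem120a-/- mice, called knockout mice here, also carried Cre under the adiponectin promoter, which acts in adipocytes and leaves the gene intact in the other cells of the tissue. Control mice were littermates without Cre, and the labels call them wild type. The comparisons asked which collagen genes differed between the diets and which differed when Tmem120a was removed from adipocytes.

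Collagens are the main structural proteins of the extracellular matrix, and their chains wind around each other into a long helix. Fibrillar collagens of types I, III and V build the fibres of the connective tissue that separates fat lobules. Type IV chains form the sheet of the basement membrane around each adipocyte and each vessel. Type VI chains form beaded filaments close to adipocytes, and smaller types such as XV and XVIII link basement membranes to the matrix beside them. Most of these genes are used by fibroblasts and progenitors of the tissue, and adipocytes and endothelial cells make basement membrane chains as well.

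The helix needs a glycine at the start of each repeat of the chain, and the genes show this in their coding exons. The exons printed here are from genes compared between the diets below, of which Col1a2 and Col3a1 were not called. Capitals mark glycine codons (GGN, read in frame). In the fibrillar genes the first exon of 54 bases inside the longest run of repeats is shown, for Col1a1 (chr11:94801218-94801271, plus strand), Col1a2 (chr6:4465481-4465534, plus strand), Col3a1 (chr1:45382205-45382258, plus strand) and Col5a2 (chr1:45479231-45479284, minus strand), all in mm9. For Col4a1 (chr8:11267597-11267656, minus strand) and Col28a1 (chr6:8108130-8108174, minus strand), whose exons vary more in length, an exon at the longest run of repeats is shown.
Col1a1: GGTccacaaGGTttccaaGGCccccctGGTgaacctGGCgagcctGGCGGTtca
Col1a2: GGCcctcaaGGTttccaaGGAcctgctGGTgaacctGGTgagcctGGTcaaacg
Col3a1: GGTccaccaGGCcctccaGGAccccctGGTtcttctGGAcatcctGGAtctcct
Col5a2: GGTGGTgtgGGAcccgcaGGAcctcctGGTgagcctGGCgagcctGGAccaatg
Col4a1: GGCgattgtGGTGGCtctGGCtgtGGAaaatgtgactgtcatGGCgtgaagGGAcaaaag
Col28a1: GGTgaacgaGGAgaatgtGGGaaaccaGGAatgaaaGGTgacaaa
In the fibrillar exons glycine opened all 6 repeats. The Col4a1 exon holds only the start of that gene's longest run, at its end, and the spacing was broken ahead of the run. The longest uninterrupted run of repeats in the coding sequence was 338 in Col1a1, 339 in Col1a2, 344 in Col3a1 and 339 in Col5a2, against 40 in Col4a1 and 28 in Col28a1. Exons of exactly 54 bases made up 21 of the 51 coding exons of Col1a1, 24 of 51 in Col3a1 and 24 of 54 in Col5a2, but 2 of 52 in Col4a1 and 2 of 34 in Col28a1. Over the family the longest run lay between 216 and 344 repeats in the fibrillar genes, between 39 and 66 in the type IV genes and between 28 and 113 in the others.

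Total estimated counts of read pairs lay between 54605101 and 92387737 per mouse. On LFD the level of Tmem120a itself was 85.4 ± 28.4 TPM without Cre and 41.5 ± 21.9 TPM with Cre, and on HFD 119 ± 44.5 and 51.6 ± 26.7 TPM (SD, each n = 5) (two-sided exact permutation tests, p = 0.03175 and 0.01587). TPM is the share of transcripts that a gene holds, corrected for transcript length and scaled to the same total in each library. All 10 adipocyte markers examined, such as Adipoq and Plin1, were present, with a summed level from 16130 to 33460 TPM. The 10 markers of muscle fibres, such as Acta1 and Ckm, summed in the controls to between 8.38 and 3714 TPM on LFD and to between 8.14 and 58.1 TPM on HFD. In knockout mice they summed to between 13.9 and 1129 TPM on LFD and between 44.98 and 1623 TPM on HFD, and control LFD replicate 5 had the highest value.

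Collagen RNA was concentrated in few genes. Of the 43 genes, 13 reached a mean of 10 TPM over the 20 mice and together held 97.0% of all collagen TPM, another 13 lay between 0.5 and 10 TPM, and 17 lay under 0.5 TPM. Col3a1, the chain of type III collagen, was the most abundant, with 32.3% of collagen TPM. It was followed in mean level by Col6a3 at 125 TPM, Col15a1 at 123.5 TPM, Col6a1 at 119 TPM, Col5a2 at 107 TPM, Col4a1 at 88.1 TPM and Col1a2 at 75.6 TPM. Of these, Col6a3, Col15a1, Col6a1 and Col5a2 lay closer together than the spread between mice of any one of them. Col1a1, which supplies most chains of a type I fibril, stood at 23.2 TPM and so below its partner Col1a2. All collagens together took 0.101% ± 0.0310 of TPM on LFD and 0.140% ± 0.0147 on HFD in the controls, and 0.0976% ± 0.0214 on LFD and 0.147% ± 0.0433 on HFD in the knockouts (SD, each n = 5), with overlap between the diets in both genotypes.

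By class, the mean sums in TPM were higher on HFD in all 3 classes and both genotypes. Fibrillar genes summed to 542 ± 153 TPM on LFD and 657 ± 64.0 TPM on HFD in the controls, and to 547 ± 133 and 748 ± 221 TPM in the knockouts (SD, each n = 5). Type IV genes summed to 108 ± 29.1 and 191 ± 35.2 TPM in the controls and to 94.8 ± 13.98 and 162 ± 76.9 TPM in the knockouts. The 26 other genes summed to 355 ± 148 and 556 ± 84.9 TPM, and to 335 ± 81.5 and 556 ± 175 TPM, in the same order. The log2 ratio of the group means, HFD to LFD, was 0.28 for fibrillar, 0.83 for type IV and 0.65 for other genes in control mice, and 0.45, 0.77 and 0.73 in knockout mice. Between the genotypes it lay between -0.24 and 0.19 for the 3 classes on either diet. Fibrillar genes made up 54.8% and 55.8% of collagen TPM on LFD (controls and knockouts) and 46.9% and 51.2% on HFD. Type IV genes made up 10.98% and 10.1% on LFD and 13.6% and 10.9% on HFD, and in the knockouts their median share was 10.5% on LFD and 9.10% on HFD. Without knockout HFD replicate 21 the log2 ratio of the type IV sum in knockout mice was 0.45. Sums were not tested, and Col3a1 alone carries most of the fibrillar sum. Over all genes tested the median log2 difference in TPM was 0.13 in control and 0.08 in knockout mice (HFD to LFD, limma). By the test on counts described below these medians were -0.04 and 0.003. Mean TPM on HFD was 1.59 times that on LFD for Col6a3 and 1.68 times for Col15a1. On counts their log2 fold changes were 0.34 and 0.39, and neither was called.

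**Figure D1:**
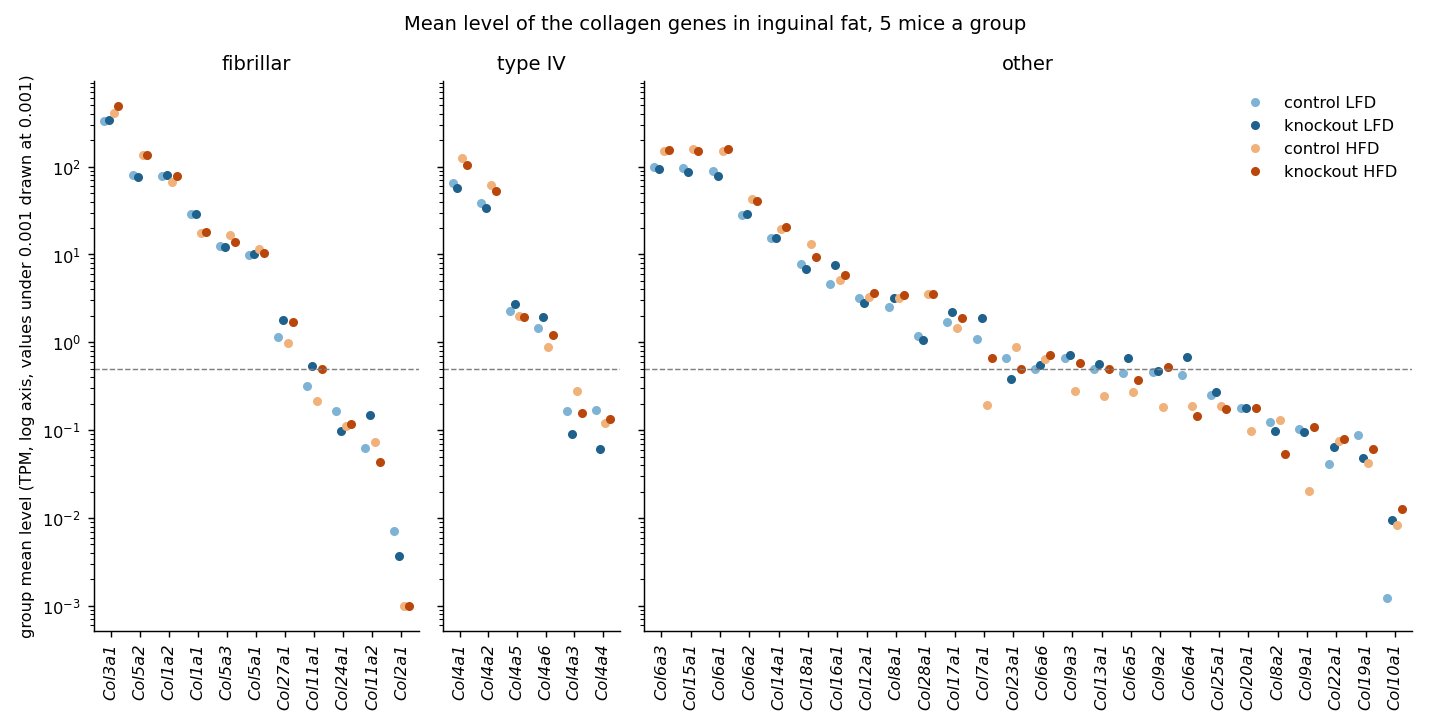
Group mean level of the 43 collagen genes in TPM on a log axis, by class, with 1 point for each group of 5 mice and a dashed line at the 0.5 TPM used as the limit for testing. Col3a1 stands at the top and Col2a1 at the bottom, and the points of Col1a1 lie lower on HFD than on LFD in both genotypes, as do those of Col1a2 by a smaller step.

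On HFD the collagen genes of control mice moved in both directions. Only genes whose mean reached 0.5 TPM were tested, on estimated counts by edgeR's quasi-likelihood test, and an adjusted p under 0.1 (Benjamini-Hochberg over all genes tested) was taken as a call. Of the 25 collagen genes tested, 8 were called, where 9.32% of all 15311 genes tested were. Of these 8, 6 were higher and 2 lower on HFD, and over all genes 4.42% were called higher and 4.9% lower. Higher on HFD were Col28a1, Col4a1, Col4a2, Col5a2, Col6a1 and Col23a1, and lower were Col1a1 and Col7a1. Muscle markers differed in the same comparison, with 9 of 10 called lower on HFD. Without control LFD replicate 5, the mouse with the most muscle RNA, 6 collagen genes were called, with Col1a1 at -0.94 (edgeR adjusted p = 0.04677) and Col28a1 at 1.35 (edgeR adjusted p = 0.0159). The median log2 fold change of the collagen genes tested was 0.20, and that of all genes tested was -0.04. In knockout mice, which share no mouse with that comparison, 6 of 28 collagen genes tested were called, where 9.4% of 15705 genes were (4.55% higher and 4.85% lower). These were Col28a1, Col6a1, Col5a2 and Col4a1, higher on HFD, and Col1a1 and Col7a1, lower. All 6 were among the 8 called in control mice and had the same direction there. Of the 24 collagen genes tested in both genotypes, 23 had the same sign of change, where 74.3% of 14943 genes did. Across these 24 genes the log2 fold changes in the 2 genotypes had a Pearson r of 0.949, against 0.379 across all genes, as a description over genes that share libraries and are not independent. By rank the contrast was smaller, with a Spearman correlation of 0.894 against 0.607. The interaction of diet and genotype was called for 0 of 26 collagen genes and, by edgeR, for 0.0% of all genes tested. No collagen gene reached an unadjusted p under 0.05 for it, and DESeq2 called 0 collagen genes too.

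**Figure D2:**
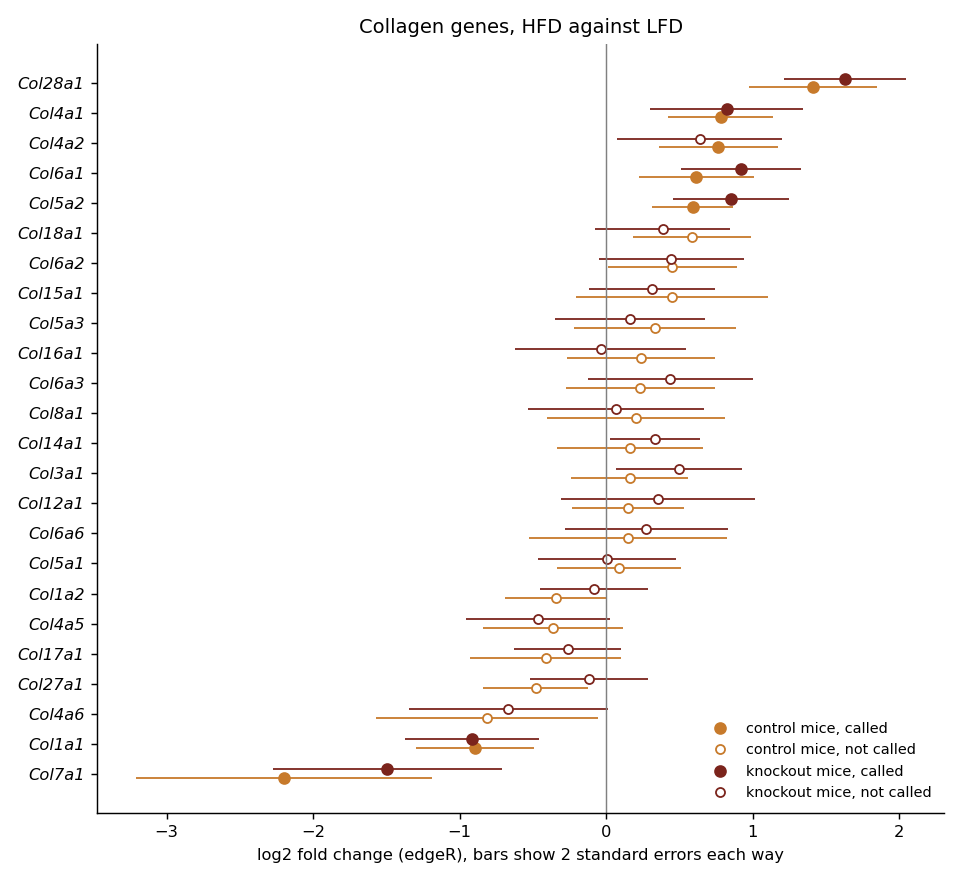
Log2 fold change of the 24 collagen genes tested in both genotypes, HFD against LFD, from edgeR, with bars of 2 standard errors each way and filled points for calls at an adjusted p under 0.1. Control and knockout mice order the genes alike, from Col28a1 at the top to Col1a1 and Col7a1 at the bottom.

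With both genotypes in one fit, 11 of 26 collagen genes were called between the diets, 7 higher and 4 lower on HFD, where 25.2% of 15574 genes were called, 12.5% higher and 12.7% lower. This fit uses all mice of the separate comparisons, so it adds precision and not new mice. By class, 2 of 7 fibrillar genes tested, 3 of 4 type IV genes and 6 of 15 other genes were called. It added Col18a1 and Col6a2, higher on HFD, and Col9a3 and Col4a6, lower, to the 7 genes Col28a1, Col5a2, Col1a1, Col7a1, Col6a1, Col4a1 and Col4a2. The remaining 15 genes tested, among them the abundant Col3a1, Col6a3, Col15a1 and Col1a2, did not pass. Of 9 other settings of this fit, Col3a1 and Col6a3 each passed in 3, Col15a1 in 2 and Col1a2 in 0.

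Within the fibrillar class, Col1a1 of type I collagen fell and Col5a2 of type V collagen rose. Col1a1 had a TPM of 35.7, 42.0, 21.1, 19.4 and 26.7 in the control mice on LFD and of 20.98, 21.6, 12.9, 16.6 and 14.96 in those on HFD. In the knockout mice it was 25.7, 25.4, 34.3, 28.4 and 28.96 on LFD and 10.2, 17.97, 22.6, 11.7 and 26.7 on HFD. The groups met at their edges in both genotypes, with 3 of 5 control and 4 of 5 knockout mice on HFD below all mice of their genotype on LFD. By edgeR the change on the log2 scale was -0.90 (standard error, SE, of 0.202 and adjusted p = 0.03) in control mice and -0.91 (SE 0.229, edgeR adjusted p = 0.03837) in knockout mice. In both together it was -0.90 (adjusted p = 0.0003489, edgeR). Its partner Col1a2 had 88.4, 109, 71.8, 58.7 and 60.9 TPM in the controls on LFD and 67.1, 84.6, 57.03, 68.4 and 54.2 TPM on HFD, and in the knockouts 67.8, 63.1, 89.1, 96.9 and 85.6 TPM on LFD and 47.5, 85.4, 107, 61.8 and 88.1 TPM on HFD. The Col1a2 groups overlapped throughout, with 66.3 ± 12.0 TPM on HFD and 77.8 ± 21.1 TPM on LFD in control mice and 77.9 ± 23.3 against 80.5 ± 14.4 TPM in knockout mice (SD, n = 5). Over both genotypes its log2 fold change was -0.21 and did not pass (adjusted p = 0.28, edgeR).

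The type V chain Col5a2 belongs to a collagen that sits inside type I and III fibrils. It had a TPM of 110.4, 93.0, 76.1, 63.9 and 61.9 in control mice on LFD and of 120.2, 141, 117, 130.5 and 163 in control mice on HFD, and these groups did not overlap. Among all genes tested in control mice, 9.78% had groups that did not overlap, 8.32% with HFD higher and 1.46% with HFD lower. In knockout mice the values were 64.4, 50.8, 82.8, 89.5 and 88.7 on LFD and 86.7, 172, 181, 90.8 and 152 on HFD, so that 1 mouse on HFD lay within the LFD range. This gave a log2 fold change of 0.59 (SE 0.137, edgeR adjusted p = 0.03328) in control and 0.85 (SE 0.197, edgeR adjusted p = 0.02859) in knockout mice. With offsets for the mean transcript length, which correct counts for shifts between the transcripts of a gene, these became 0.56 and 0.73, with adjusted p of 0.1247 and 0.1355 (edgeR). Col3a1, whose gene lies beside Col5a2 on chromosome 1 with 24614 bases between them, had 426, 443.5, 309, 248 and 226 TPM in control mice on LFD and 438, 465, 363, 377 and 401.5 TPM on HFD. In knockout mice it had 275, 199, 350.1, 429 and 433 TPM on LFD and 327, 631, 626, 350.2 and 511 TPM on HFD. Its groups overlapped in both genotypes, and its log2 fold change over both of 0.34 missed the limit (adjusted p = 0.1172, edgeR). Col5a1, the partner of Col5a2 in type V collagen, stood at 11.6 ± 2.91 against 9.81 ± 3.54 TPM in control mice and at 10.3 ± 4.52 against 10.2 ± 2.501 TPM in knockout mice (HFD against LFD, SD, n = 5), and it was not called.

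**Figure D3:**
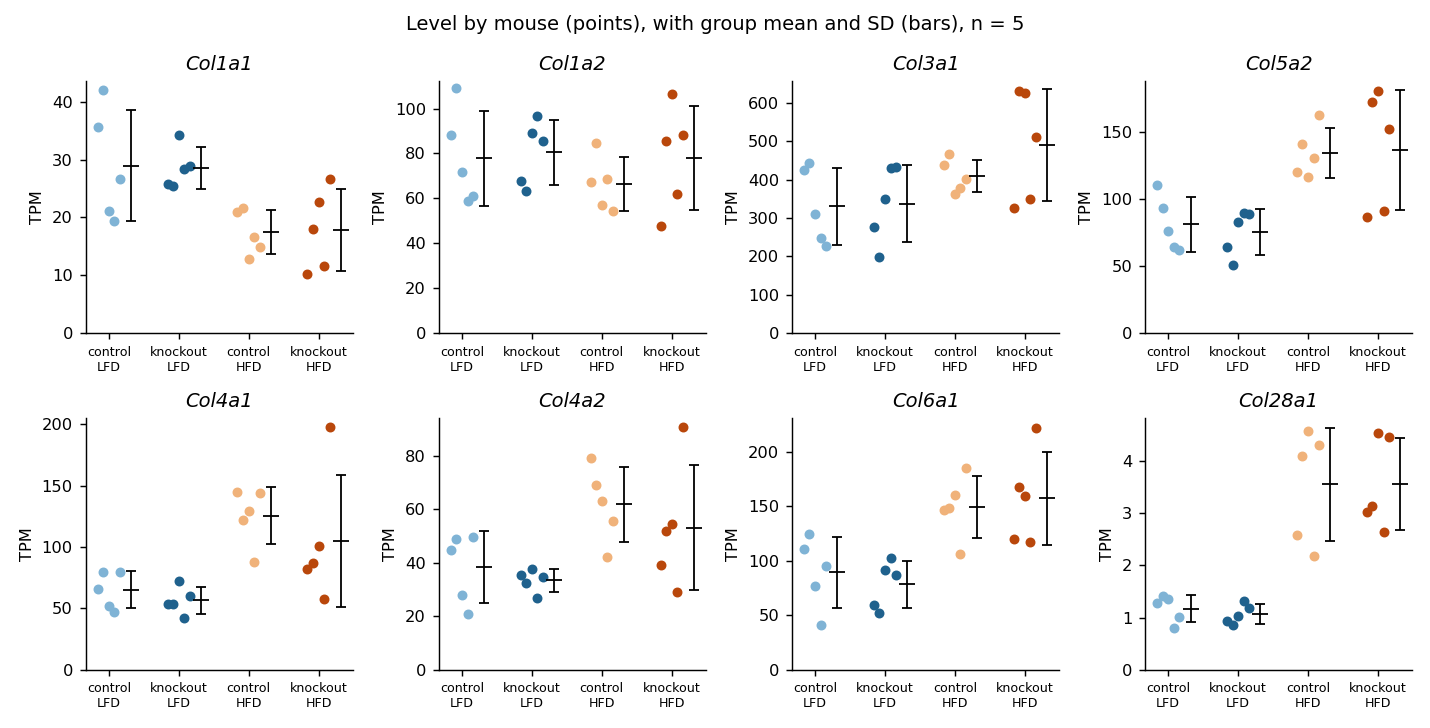
TPM of 8 collagen genes in each of the 20 mice, with the group mean and SD beside the points and linear axes from 0. Col28a1 is higher in every mouse on HFD than in any on LFD. Col1a1 is lower in mean on HFD, with groups that overlap at their edges, and Col1a2 overlaps across all groups.

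The balance between some fibrillar chains differed between the diets, which TPM shows mouse by mouse because both chains come from the same library. The ratio of Col3a1 to Col1a1 was 11.7 ± 2.32 in control mice on LFD and 24.0 ± 3.27 on HFD, and 11.8 ± 3.19 and 28.8 ± 6.05 in knockout mice (SD, n = 5). The highest ratio on LFD was 15.1 and the lowest on HFD was 19.1, so the diets did not overlap in either genotype. The ratio of Col5a2 to Col1a2 was 1.05 ± 0.143 and 2.08 ± 0.534 in control and 0.929 ± 0.0833 and 1.75 ± 0.199 in knockout mice (LFD and HFD, SD, n = 5), also without overlap. Col1a2 to Col1a1 went from 2.76 ± 0.450 to 3.85 ± 0.467 in control and from 2.82 ± 0.377 to 4.54 ± 0.742 in knockout mice, with overlap between the diets in both genotypes. The ratio of the type V partners Col5a2 to Col5a1 was 8.87 ± 2.80 and 12.3 ± 4.11 in control and 7.74 ± 2.73 and 14.3 ± 5.43 in knockout mice (LFD and HFD, SD, n = 5), and it overlapped between the diets in both genotypes as well. The 4065-base transcript of Col1a1 held 50.8% of its TPM on LFD and 58.8% on HFD, and the part of this assignment in the ratios was not tested. These ratios carry no test. Ratios had been planned only for chains of the same molecule, and all of those overlapped between the diets in both genotypes. The ratios without overlap join chains of different molecules and were added to that plan. How many pairs among all genes separate the diets in this way was not computed.

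**Figure D4:**
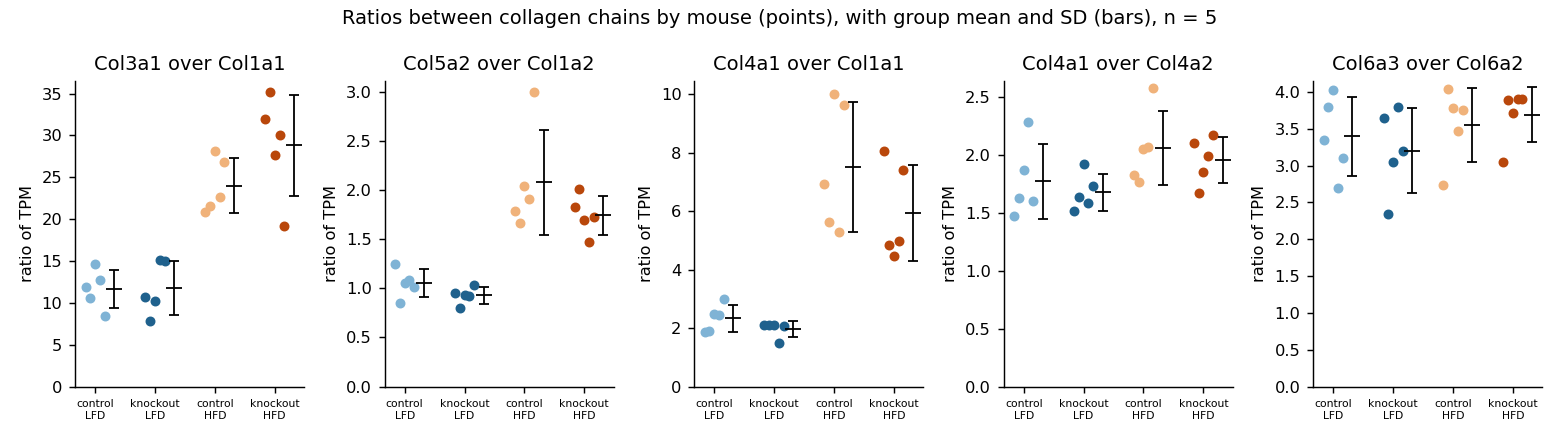
Ratio of TPM between pairs of collagen chains in each of the 20 mice, with group mean and SD and axes from 0. The ratios of Col3a1 to Col1a1, Col5a2 to Col1a2 and Col4a1 to Col1a1 are higher in every mouse on HFD than in any on LFD, while Col4a1 to Col4a2 and Col6a3 to Col6a2, chains that form 1 molecule together, overlap.

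The main chains of the basement membrane rose on HFD over both genotypes. Col4a1 had a TPM of 66.2, 79.6, 52.2, 47.4 and 79.7 in control mice on LFD and of 145, 122, 129, 87.7 and 144 on HFD, with no overlap. In knockout mice it was 53.9, 53.2, 72.6, 42.3 and 60.3 on LFD and 82.1, 87.2, 101, 57.96 and 198 on HFD, where 1 mouse on HFD fell within the LFD range and 1 stood far above the others. In control mice the log2 fold change was 0.78 (SE 0.179, edgeR adjusted p = 0.03144). In knockout mice it was 0.82 (SE 0.262, edgeR adjusted p = 0.0938), and this call held without knockout HFD replicate 20 but not without any other mouse of that comparison. It was also lost in 5 of 9 other settings, with no filter, the filter at 5 TPM, length offsets in edgeR and both limma fits. Without knockout HFD replicate 21, the mouse at 198 TPM, it was 0.53 with an adjusted p of 0.1795. Over both genotypes it was 0.81 (adjusted p = 0.001186, edgeR). Its partner in the type IV molecule, Col4a2, had 44.9, 49.04, 27.9, 20.7 and 49.7 TPM in the controls on LFD and 79.4, 69.1, 63.004, 42.3 and 55.9 TPM on HFD, so that 1 of 5 mice on HFD lay within the LFD range. Col4a2 went from 38.5 ± 13.3 on LFD to 61.9 ± 13.95 TPM on HFD among controls, and from 33.5 ± 4.19 to 53.1 ± 23.5 TPM among knockouts (SD, each n = 5), with a log2 fold change of 0.71 over both genotypes (adjusted p = 0.008129, edgeR). In control mice alone its call (0.77, adjusted p = 0.05485, edgeR) was lost with length offsets by edgeR (0.52, adjusted p = 0.2348) or DESeq2 and with both limma fits. It was also lost without control LFD replicate 3 or control HFD replicate 11, 12 or 13. The ratio of Col4a1 to Col4a2 was 1.77 ± 0.322 and 2.06 ± 0.321 in control mice and 1.68 ± 0.159 and 1.96 ± 0.201 in knockout mice (LFD and HFD, SD, n = 5). These genes lie head to head on chromosome 8, on opposite strands, and their annotated 5′ ends overlap by 22 bases. Over the 20 mice their log2 levels had a Pearson r of 0.939, and 0.909 once group means were subtracted, as a description over mice that share their library for both genes.

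The other type IV chains fell or were not called. Col4a6, found in basement membranes of smooth muscle and epithelium, fell over both genotypes (log2 fold change -0.74, adjusted p = 0.05707, edgeR), at 1.47 ± 0.529 TPM on LFD and 0.875 ± 0.608 on HFD among controls, and at 1.97 ± 0.824 and 1.21 ± 0.427 TPM among knockouts (SD, each n = 5). Col4a5 was at 2.49 ± 0.908 TPM on LFD and 1.97 ± 0.281 TPM on HFD (SD over the 10 mice of each diet) and was not called. Col4a3 and Col4a4, the chains of the kidney filter, were under 0.5 TPM and not tested.

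Among the other collagens, Col28a1 rose in both genotypes. It encodes a short-repeat collagen with von Willebrand factor domains that is best known from Schwann cells of peripheral nerve. Its TPM was 1.27, 1.42, 1.35, 0.808 and 1.002 in control mice on LFD and 2.58, 4.10, 4.59, 2.19 and 4.31 on HFD. In knockout mice it was 0.932, 0.862, 1.04, 1.32 and 1.19 on LFD and 3.02, 3.14, 4.55, 2.63 and 4.47 on HFD. All 10 mice on HFD lay above all 10 on LFD, as for 1.47% of all genes tested (1.73% with those that were lower throughout), and Col28a1 was the only one of the 26 collagen genes tested that did so. Its log2 fold change was 1.41 (SE 0.219, edgeR adjusted p = 0.005969) in control and 1.63 (SE 0.208, edgeR adjusted p = 0.002069) in knockout mice, and 1.53 in both together (adjusted p = 1.115e-06, edgeR). Estimated counts lay between 327 and 546 per mouse on LFD and between 853 and 1938 on HFD. Of 8 markers of Schwann cells, 7 were tested over both genotypes, 3 with a log2 fold change above 0 and 4 below. Their median was -0.07 and 0 were called, where 25.2% of all genes tested were. The part of these cells in the change of Col28a1 was not tested.

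Of the type VI chains, Col6a1 was called higher on HFD in both genotypes, with little margin in control mice. It had 111, 124, 77.2, 40.6 and 94.9 TPM in control mice on LFD and 146, 148, 160.1, 106 and 185 TPM on HFD. In knockout mice it had 59.6, 51.99, 91.5, 102 and 87.3 TPM on LFD and 120.1, 168, 160, 117 and 222 TPM on HFD. The knockout groups did not overlap, as for 7.95% of all genes tested there (5.01% with HFD higher and 2.94% lower), and the control groups overlapped. In knockout mice the log2 fold change was 0.92 (SE 0.204, edgeR adjusted p = 0.02469). In control mice it was 0.61 (SE 0.196, edgeR adjusted p = 0.09693), and this call was lost without control LFD replicate 3 or 5 or control HFD replicate 11, 12, 13 or 15, with log2 fold changes from 0.56 to 0.62 and adjusted p from 0.1659 to 0.1782. It held in 2 of 9 other settings and was lost with RLE size factors, no filter, the filter at 5 TPM, length offsets by edgeR or DESeq2 and both limma fits. Over both genotypes it was 0.77 (adjusted p = 0.0006762, edgeR). Col6a2 had a log2 fold change of 0.46 over both genotypes (adjusted p = 0.06468, edgeR). This call was lost with the filter at 5 TPM and with length offsets in edgeR (0.41, adjusted p = 0.1161). It was also lost without any one of control LFD replicate 4, knockout LFD replicates 6 and 7, control HFD replicate 15 and knockout HFD replicates 19 and 21. Col6a3 had 102, 163, 97.6, 39.01 and 93.6 TPM in the controls on LFD and 125, 166, 147, 122 and 199 TPM on HFD, and in the knockouts 90.1, 45.7, 117, 102 and 112 TPM on LFD and 78.6, 163, 181, 107 and 240.97 TPM on HFD. Its groups overlapped in both genotypes, and its log2 fold change of 0.34 was not called (adjusted p = 0.2381, edgeR). Between Col6a3 and Col6a2 the ratio was 3.396 ± 0.533 and 3.56 ± 0.503 in control and 3.21 ± 0.575 and 3.69 ± 0.371 in knockout mice (LFD and HFD, SD, n = 5), and over the 20 mice these genes had a Pearson r of 0.953, and 0.935 with group means subtracted. Col6a4, Col6a5 and Col6a6 lay at a mean of 0.360, 0.436 and 0.603 TPM.

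Collagens XV and XVIII, which carry endostatin-like ends and sit at basement membranes of vessels, were also higher in mean on HFD. Col18a1 went from 7.76 ± 1.62 TPM on LFD to 13.2 ± 4.32 TPM on HFD among controls and from 6.78 ± 2.20 to 9.44 ± 4.86 TPM among knockouts (SD, each n = 5), and its log2 fold change over both genotypes was 0.49 (adjusted p = 0.03884, edgeR). Col15a1 had 194, 120.4, 59.1, 14.2 and 94.5 TPM in the controls on LFD and 143, 161, 119, 158 and 215 TPM on HFD, and in the knockouts 72.3, 37.1, 98.7, 109.8 and 122 TPM on LFD and 74.7, 202, 182, 104 and 188 TPM on HFD. Over both genotypes Col15a1 had 92.2 ± 50.6 TPM on LFD and 155 ± 44.96 TPM on HFD (SD over 10 mice each), and its log2 fold change of 0.39 did not pass (adjusted p = 0.1948, edgeR). Markers of endothelium moved in the same direction. All 8, such as Pecam1 and Cdh5, had a log2 fold change above 0 over both genotypes and 5 were called, and they summed to between 134 and 235 TPM on LFD and between 215 and 350.5 TPM on HFD. Of 10 adipocyte markers, 7 had a log2 fold change above 0 over both genotypes and 3 below. Among them 3 were called higher and 0 lower, where 12.5% of all genes tested were called higher. In bulk tissue fewer or more cells of a type and less or more RNA per cell cannot be told apart. The part of endothelium or adipocytes in the change of Col4a1, Col4a2 and Col18a1 was not tested.

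Col7a1 and Col9a3, at a low level in this tissue, were lower on HFD. Col7a1, which anchors the epidermis to the dermis, had estimated counts of 214, 537, 273, 563 and 412 in control mice on LFD and of 164, 78, 118, 118 and 12 on HFD. In knockout mice the counts were 505, 594, 624, 788 and 233 on LFD and 216, 229, 314, 99 and 298 on HFD. In these counts, which are not scaled for library or length, the control groups did not overlap and in knockout mice 1 mouse on LFD lay within the HFD range. In TPM the control groups did not overlap either, while the knockout mice on HFD spanned 0.0805 to 2.21 TPM and 4 of 5 knockout mice on LFD lay within that range. These differences were -2.20 on the log2 scale (SE 0.505, edgeR adjusted p = 0.03149) in control and -1.49 (SE 0.392, edgeR adjusted p = 0.04642) in knockout mice. The latter was not called with length offsets (-1.63, adjusted p = 0.2689, edgeR). It was also lost with length offsets by DESeq2 and with both limma fits, and it held in 4 of 8 other settings. Most of the TPM of Col7a1 was assigned to transcripts with a retained intron. Col9a3, a chain of cartilage, had estimated counts between 50 and 262 on LFD and between 15 and 145 on HFD, with a log2 fold change of -1.60 over both genotypes (adjusted p = 0.005286, edgeR), which with length offsets was -0.93 (adjusted p = 0.1492). The Col9a3 call was also lost with both limma fits and held in 5 of 8 other settings. The 10 markers of epithelium summed to between 195 and 374 TPM on LFD and between 97.0 and 384 TPM on HFD, with 2 called lower over both genotypes, Trp63 and Krt15. Of 9 markers of cartilage and bone, 2 could be tested, and both, Sox9 (log2 fold change -1.69) and Cnmd (-1.56), were called lower, while Matn3 and Bglap were at 0 in all groups. The summed level of that list lay between 2.47 and 9.87 TPM on LFD and between 1.29 and 3.78 TPM on HFD. The part of such tissue in the results for Col7a1, Col9a3 and Col4a6 was not tested. Col23a1, a transmembrane collagen, was called higher in control mice (0.76, adjusted p = 0.08255, edgeR), and with length offsets its log2 fold change was 0.27 (adjusted p = 0.8627). The call held without control LFD replicate 1 or 4 or control HFD replicate 13 and was lost without any other mouse of that comparison. It held in 3 of 8 other settings. Col23a1 had estimated counts between 140 and 201 on LFD and between 278 and 367 on HFD in control mice, and in knockout mice between 96 and 264 on LFD and between 81 and 439 on HFD. The control counts did not overlap, but in TPM they did, since control LFD replicate 1 stood at 1.99 TPM, above all control mice on HFD (0.5002 to 1.90).

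The fibril-associated collagens other than Col9a3, and the chains not yet described, were not called between the diets over both genotypes. Col14a1, which coats type I fibrils, stood at 15.4 ± 4.31 TPM on LFD and 20.1 ± 3.93 TPM on HFD (SD over 10 mice each), with a log2 fold change of 0.25 over both genotypes (edgeR adjusted p = 0.2543). Col12a1, its close relative, had 3.005 ± 0.720 and 3.47 ± 1.23 TPM, and Col16a1 had 6.09 ± 3.91 and 5.49 ± 3.18 TPM. Col5a3, the third chain of type V collagen, had 12.4 ± 3.53 and 15.3 ± 7.12 TPM, and Col8a1, a short-chain collagen of vessel walls, had 2.84 ± 1.18 and 3.33 ± 0.931 TPM. Col17a1, the transmembrane collagen of basal keratinocytes, had 1.96 ± 0.664 and 1.66 ± 0.546 TPM and a log2 fold change of -0.34 (edgeR adjusted p = 0.1544). Markers of macrophages, lymphocytes and tendon had median log2 fold changes of 0.00, -0.43 and -0.68 over both genotypes, with 8, 8 and 2 genes tested, of which 1 macrophage gene was called by edgeR.

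Gene length went with the direction of change as well. Among genes whose mean transcript was longer than 6000 bases, the median log2 fold change over both genotypes was -0.19, against 0.02 for genes from 2000 to 4000 bases. For genes from 4000 to 6000 bases that median was -0.05. The mean transcript length was 9221 bases for Col7a1 and 4885 for Col1a1, which were lower on HFD. It was 6615 bases for Col4a1, which was higher on HFD. The part of length in the results was not tested beyond the fits with offsets. On the scale of TPM the median of all genes tested was 0.13 higher on HFD in control mice (limma on log2(TPM + 1)), so that 83.7% of calls were higher, against 47.4% with edgeR. By limma the log2 difference of Col1a1 was -0.67 in control (adjusted p = 0.09523) and -0.73 in knockout mice (adjusted p = 0.1103), and that of Col28a1 was 1.04 and 1.12 (adjusted p = 0.0112 and 0.01077).

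The 17 genes under 0.5 TPM over the 20 mice were Col13a1, Col6a5, Col9a2, Col11a1, Col6a4, Col25a1, Col4a3, Col20a1, Col24a1, Col4a4, Col8a2, Col9a1, Col11a2, Col22a1, Col19a1, Col10a1 and Col2a1. They held 0.268% of collagen TPM. Their mean was lower on HFD for 13 and higher for 4. Col2a1, the collagen of cartilage, had at most 3 counts in 17 of 20 mice, and Col10a1, the collagen of growth plate, in 14. Groups of 2 of these genes did not overlap, each in 1 comparison between the diets. Among the genes tested, HFD was lower without overlap for 1.46% in control and 2.94% in knockout mice, and these 2 genes, singled out for that separation, get no test. Col20a1 was lower on HFD in control mice, at 0.0987 ± 0.00789 against 0.178 ± 0.0517 TPM (SD, n = 5), and in knockout mice it was at 0.180 ± 0.0745 against 0.179 ± 0.0676 TPM. Col6a4 was lower on HFD in knockout mice, at 0.144 ± 0.101 against 0.689 ± 0.266 TPM (SD, n = 5), and in control mice it was at 0.189 ± 0.254 against 0.419 ± 0.159 TPM.

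No collagen gene was called between knockout and control mice on either diet. On LFD 0 of 29 collagen genes tested were called, where 0.00636% of all genes tested were called by edgeR, and 1 had an unadjusted p under 0.05. On HFD 0 of 24 were called, where 0.00657% of all genes were, and 1 had an unadjusted p under 0.05. On both diets edgeR called 0 of all genes tested lower in knockout mice, so these fits did not call the deleted gene Tmem120a either. DESeq2 called 0 collagen genes on either diet. In both comparisons the gene with the smallest p was Col27a1, a fibrillar collagen of cartilage and of other tissues at low level. On HFD it had a TPM of 0.952, 1.02, 1.21, 0.616 and 1.17 in control and of 1.67, 2.30, 1.72, 1.496 and 1.24 in knockout mice, with no overlap, as for 0.69% of all genes tested. Its log2 fold change was 0.76 (standard error 0.208) and did not pass (adjusted p = 0.5978, edgeR). On LFD its level was 1.16 ± 0.244 TPM among controls and 1.78 ± 0.462 TPM among knockouts (SD, each n = 5), with a log2 fold change of 0.39 (adjusted p = 0.9293, edgeR). Over both diets it was 0.57 (adjusted p = 0.344, edgeR), and DESeq2 called it there.

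**Figure D5:**
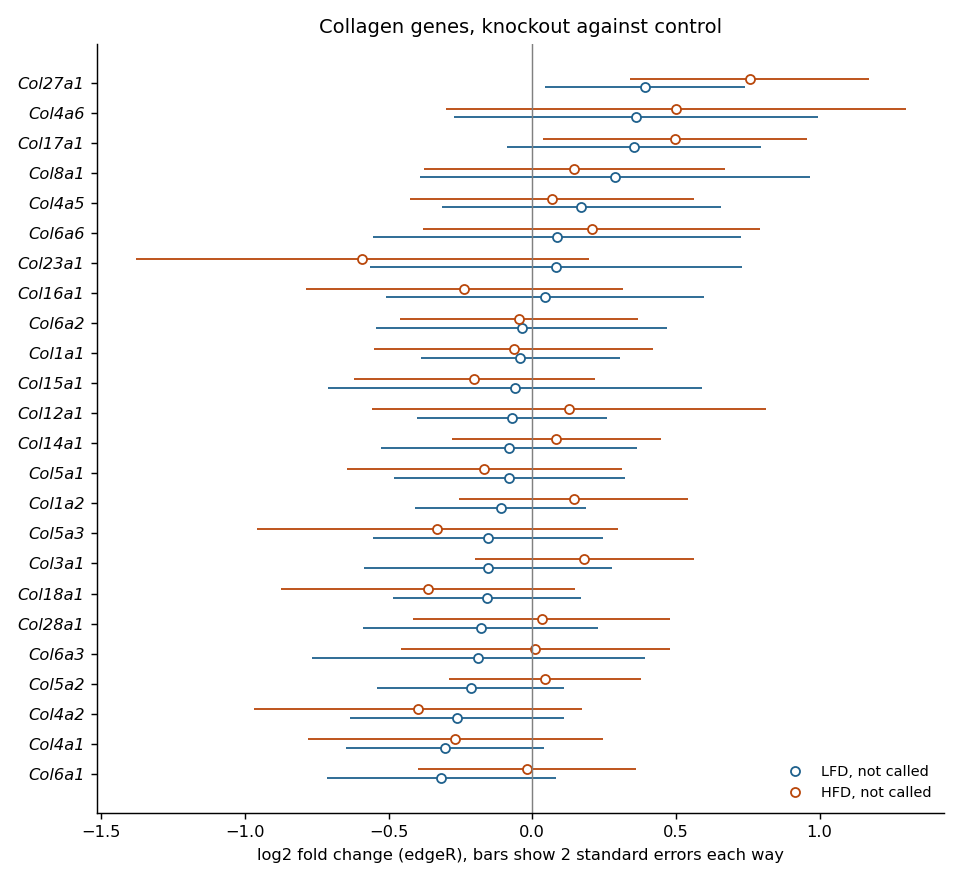
Log2 fold change of the 24 collagen genes tested on both diets, knockout against control, from edgeR, with bars of 2 standard errors each way. No point is filled because none was called, and Col27a1 at the top is the gene whose bars stay above 0 on both diets.

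For the abundant chains the fits bound the genotype effect. Over both diets, in a fit of all 20 mice, 0 of 26 collagen genes were called and 0.0385% of all genes tested were. Given as 2 standard errors either way, the log2 fold change ran from -0.29 to 0.30 for Col3a1, from -0.37 to 0.25 for Col1a1, from -0.25 to 0.27 for Col1a2, from -0.33 to 0.15 for Col5a2, from -0.46 to 0.12 for Col6a1, from -0.61 to 0.03 for Col4a1 and from -0.37 to 0.22 for Col28a1. Of the 26 genes, 24 had such a range within 1 on the log2 scale either way. The exceptions were Col7a1, with 0.93 (adjusted p = 0.546, edgeR), and Col9a3, with 0.37 (adjusted p = 0.8383, edgeR).

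Genes that act on collagen chains were compared between the diets over both genotypes, by lists of known function. In that fit 12.5% of all genes tested were called higher and 12.7% lower, and each count is to be read against these shares. Of 17 enzymes and chaperones of chain modification and folding, 6 rose and 0 fell. They were P4hb, a subunit of prolyl hydroxylase (0.38), Plod3, a lysyl hydroxylase (0.53), P3h1 (0.56) and Crtap (0.48), which act together on prolines, Serpinh1, the collagen chaperone of the endoplasmic reticulum (0.71, from 62.1 ± 11.2 to 109 ± 39.5 TPM, SD over 10 mice each), and Colgalt1 (0.19), with log2 fold changes from edgeR in parentheses. The median of that list was 0.12, and that of all genes -0.03. Of 10 genes of secretion and propeptide removal tested, 5 rose and 1 fell. The largest rise was Pcolce2, an enhancer of propeptide removal, at 15.9 ± 5.75 TPM on LFD and 84.8 ± 28.2 TPM on HFD (log2 fold change 2.10, adjusted p = 3.609e-07, edgeR). Sec23a, Sec24d, Pcolce and Adamts2 rose by 0.42, 0.65, 0.75 and 0.38, and Adamts3 fell by 1.14 on the log2 scale. The median of those 10 genes was 0.27. Of 6 crosslinking enzymes, lysyl oxidase (Lox) alone passed, with 0.76, which is near the 12.5% called higher among all genes. Of 8 proteoglycans that bind fibrils, Bgn (0.61), Prelp (1.05) and Aspn (1.08) rose and 0 fell.

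Partners of type IV collagen in the basement membrane did not rise with Col4a1. Of 14 tested, with a median log2 fold change of -0.19, 0 rose and 5 fell, namely the laminin chains Lama2 (-0.57), Lama3 (-0.67) and Lamc3 (-0.97), perlecan (Hspg2, -0.83) and agrin (Agrn, -0.65), where 12.7% of all genes were called lower. Among genes whose mean transcript was longer than 6000 bases, 36.3% were called lower in that fit, with a median of -0.19. The part of length in these 5 calls was not tested. The summed TPM of the 15 genes of that list was 404 ± 112 on LFD and 478 ± 31.7 on HFD in the controls and 425 ± 39.99 and 434 ± 104 in the knockouts (SD, each n = 5), so it did not share their direction. Of 8 receptors and uptake proteins tested, 4 rose and 0 fell, with integrin chains Itga1 (0.38) and Itgb1 (0.38), the receptor kinase Ddr1 (0.78) and Mrc2 (1.64), which takes up collagen for degradation. Among 11 genes of fibrosis signals and matrix, Sparc, which binds collagen outside the cell, rose (1.28, from 385 ± 103 to 1055 ± 281.5 TPM, SD over 10 mice each) and Tnc rose (0.38), while Fn1 (-0.83) and Tgfb1 (-0.68) fell. Of 12 markers of fibroblasts and progenitors, 4 rose (Pi16, Cd34, Dpt and Mfap5) and 2 fell (Pdgfra and Clec3b), and they summed to between 725 and 1124 TPM on LFD and between 1078 and 1483 TPM on HFD. In control mice alone 0 of these markers were called higher and 2 lower, with a median log2 fold change of -0.10. In knockout mice 4 were called higher and 0 lower, with a median of 0.22. The interaction was called for 0 of the 12. The part of these cells in the collagen results was not tested.

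Genes with a pattern like that of Col1a1 and Col4a1 were sought among all genes by the Pearson r of log2(TPM + 1) over the 20 mice, without a test. For Col1a1 they were Lama2 (0.872), Pcdh19 (0.854), Nav1 (0.844), Fn1 (0.839) and Lpp (0.838). For Col4a1 they were Ap2a2 (0.969), Pea15a (0.957), Vim (0.951), Prkcdbp (0.949) and Sulf2 (0.948). All these values include the difference between diets, and with group means subtracted the r of Lama2 with Col1a1 was 0.808 and that of Ap2a2 with Col4a1 was 0.927. Col3a1 and Col5a2, the neighbours on chromosome 1, had an r of 0.889, and 0.926 with group means subtracted, while Col1a1 and Col1a2 had 0.738 and 0.860.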

How the data were processed

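RNA depleted of ribosomal RNA was sequenced as strand-specific read pairs from 20 mice. Per the submitters' processing notes and methods, the authors quantified transcripts with Salmon 0.13.1 on Ensembl transcripts of NCBIM37 (mm9) and also aligned reads with STAR 2.5.3, and whether the deposited values went through that alignment is not stated. The authors deposited estimated counts, not normalized between libraries, and TPM, scaled within each library. For this work 94334 of 96533 transcripts (97.7%) were summed per gene with GENCODE vM1, and the rest held 0.377% to 0.581% of counts. Depth was 54605101 to 92387737 counts per mouse. Gene sums were rounded and tested with edgeR 4.0.16 (quasi-likelihood, TMM) in R 4.3.3, for genes whose mean reached 0.5 TPM, with calls at an adjusted p under 0.1 (Benjamini-Hochberg). Each comparison used its own groups, and additive and interaction fits used all mice. The methods name DESeq2, run here as an alternative (1.42.0), with limma 3.58.1 on log2 TPM, other filters, scalings and length offsets from the ratio of counts to TPM, and each replicate left out. DESeq2 with offsets was added after seeing the data. Tmem120a was compared by exact permutation tests on log2(TPM + 1). The labels mark the mice as separate samples, so p-values measure the spread between these samples.

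Members, classes and lists were chosen with earlier results of these data known. Values per mouse are given for the 3 most abundant genes of each class, called genes, the 3 smallest p per pairwise comparison, genes whose groups do not overlap and partner chains, with the rarer ones in part as means. On simulated data for HFD against LFD in control mice (15311 genes, 200 changed by 2 on the log2 scale) edgeR called 90% of changed and 23 unchanged genes. Exon sequences and coordinates are from GENCODE vM1 and were the same as the mm9 genome. Col21a1 and Col26a1 were not analysed here.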

Additional observations from a re-analysis of the deposited data

Results flagged for a closer look

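Single mice stood far from the other 4 of their group in 12 of the 140 sets of 5 values examined by Dixon's test at the 95% level, which chance alone flags in about 1 of 20 groups (5%). On HFD, Col17a1 was at 2.72 TPM in knockout replicate 18 (others 1.60 to 1.76), Col23a1 at 1.90 TPM in control replicate 14 (0.5002 to 0.810), Col4a6 at 1.92 TPM in control replicate 11 (0.342 to 0.781), Col5a1 at 18.1 TPM in knockout replicate 21 (7.24 to 10.2), Col6a4 at 0.640 TPM in control replicate 13 (0.0347 to 0.116) and Col7a1 at 2.21 TPM in knockout replicate 19 (0.0805 to 0.464). On LFD, Col23a1 was at 1.99 TPM in control replicate 1 (0.269 to 0.375) and Col4a5 at 4.65 TPM in knockout replicate 9 (1.98 to 2.58). Among ratios of TPM, knockout LFD replicate 9 had the lowest Col4a1 to Col1a1 of its group at 1.49 (2.08 to 2.12) and the highest Col6a1 to Col6a2 at 3.79 (2.38 to 2.66). Control HFD replicate 15 had the highest Col5a2 to Col1a2 at 3.002 (1.66 to 2.05), and knockout HFD replicate 17 the lowest Col6a3 to Col6a2 at 3.04 (3.72 to 3.90). Of these mice, knockout LFD replicate 9 and knockout HFD replicates 17, 19 and 18 had summed muscle markers of 1129, 1623, 1022 and 342.5 TPM, the other mice named had between 8.141 and 50.75 TPM, and the part of muscle in these values was not tested.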

How the results depend on the processing

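The number of collagen genes called between the diets depended on the settings, and the cause was not tested except that a higher filter leaves fewer genes. In control mice 8 became 4 with a mean of at least 5 TPM (14 genes tested) and 4 with edgeR and length offsets. In knockout mice 6 became 3 with each of these, and 3 with limma on log2(TPM + 1) or log2(TPM + 0.1). Over both genotypes 11 (7 higher and 4 lower) became 6 with at least 5 TPM. With no filter 16 of 43 were called there, 7 higher and 9 lower. Each limma fit called 14, with 11 higher and 3 lower. DESeq2 called 13 with or without length offsets, 8 higher and 5 lower. For knockout against control over both diets 0 became 1, Col27a1, with DESeq2 and with DESeq2 and length offsets, the latter chosen after seeing the data. With 1 mouse left out the counts lay between 5 and 8 in control mice (5 without control LFD replicate 3 or control HFD replicate 12), between 5 and 7 in knockout mice, between 10 and 14 over both genotypes, and at 0 for the genotype comparisons and the interaction. Among the 144 alternative values of summed fibrillar, type IV and other collagen TPM, each moved by less than the spread between mice. No named gene reversed its direction, while 66 gene values no longer passed and 14 newly passed. Limma on log2(TPM + 1) shifted the share of higher among called genes from 48.4% to 65.8% in knockout mice and from 49.7% to 75.0% over both genotypes. Over all genes, DESeq2 called 2205 against 1427 in control mice and 2247 against 1476 in knockout mice. For the genotype, it called 100 against 1 on HFD, 17 against 1 on LFD and 32 against 6 over both diets, and for the interaction 14 against 0. With length offsets DESeq2 called 105, 17, 47 and 16 in these, and edgeR 5, 1, 2 and 0. On HFD the newer quasi-likelihood method called 34, no filter 26, limma 3 (pseudocount 1) or 4 (pseudocount 0.1) and the filter at 5 TPM 0, and on LFD limma called 2. In control mice limma with a pseudocount of 0.1 called 2148 between the diets. No paired analysis was possible because no replicate number is shared between groups. Depth limits the rare chains, of which 17 were not tested in the fit of all mice with the filter at 0.5 TPM.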
